A study of Mus musculus with 12 samples.

Results

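Guanylate-binding proteins 3, 7 and 9 (Gbp3, Gbp7, Gbp9), the immunity-related GTPase Iigp1 and the ISG15 peptidase Usp18 were followed across cultured mouse glia given interleukin-1β (IL-1β). They are 5 interferon-inducible genes, of 5723 genes named on the array, and have 8 of its 8734 probes. The genes were picked because their probes were higher after IL-1β in wild-type glia, so those values, and every comparison that holds them, are given as a description. All 8 probes had a value on each of the 10 arrays used, as did 5713 probes in all, and no filter on low values was applied to them.

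The glia were primary mixed cultures of wild-type or IL-1R1-/- cells, the latter lacking the type 1 IL-1 receptor, and were kept 10 to 12 days after isolation. Treatments were paired within a culture: vehicle for 4 hours, or rrIL-1β at 10 ng/ml for the same time. For 1 sample the treatment is written IL-1β. The labels as used here name no strain, age or number of animals behind a culture. TRIzol was used to extract RNA, which after DNase treatment was copied into radiolabelled cDNA for hybridisation. Of the 12 arrays, 3 per group, those of the third IL-1R1-deficient replicate were not used. Its vehicle column matched that of wild-type vehicle replicate 1 at 1 fixed ratio in 5959 of 5982 shared probes, and its IL-1β column matched IL-1R1-deficient vehicle replicate 1 in 6531 of 6584. This left 3 wild-type and 2 IL-1R1-deficient cultures. Median intensities of the arrays ran from 4649 to 60399.

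Interferons bind receptors on the cell surface and, through JAK kinases and STAT factors, switch on genes that carry an interferon-stimulated response element (ISRE) or a gamma-activated site (GAS) near their start. Guanylate-binding proteins and immunity-related GTPases are large GTP-binding proteins that gather on the vacuoles of intracellular microbes and take part in their disruption. Usp18 takes the ubiquitin-like protein ISG15 off its targets and, apart from that activity, restrains signalling from the type I interferon receptor. IL-1β acts through another receptor, IL-1R1, which signals by way of MyD88 to NF-κB and MAP kinases. Microglia and astrocytes can both respond to interferons.

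In the mouse genome (GRCm38.p6) Gbp3 lies at chr3:142560016-142573213 and Gbp7 next to it at chr3:142530336-142550151. Gbp9 lies at chr5:105076464-105110357 and Usp18 at chr6:121245906-121270917. The 250 bases before a start site of Gbp3 (chr3:142559794-142560043, plus strand) and of Gbp7 (chr3:142530086-142530335, plus strand) are shown. Of the 5 genes only these 2 had a promoter window, and both hold the core of an interferon element close to the start. Capitals mark the ISRE core, searched on both strands as GAAA, any 2 bases and GAAA again, and here found as its reverse complement. The sequences are from RefSeq.
Gbp3 promoter: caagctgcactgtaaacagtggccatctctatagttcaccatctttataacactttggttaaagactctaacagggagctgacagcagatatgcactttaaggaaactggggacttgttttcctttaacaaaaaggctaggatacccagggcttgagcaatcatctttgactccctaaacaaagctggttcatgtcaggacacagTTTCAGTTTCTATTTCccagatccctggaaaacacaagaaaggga
Gbp7 promoter: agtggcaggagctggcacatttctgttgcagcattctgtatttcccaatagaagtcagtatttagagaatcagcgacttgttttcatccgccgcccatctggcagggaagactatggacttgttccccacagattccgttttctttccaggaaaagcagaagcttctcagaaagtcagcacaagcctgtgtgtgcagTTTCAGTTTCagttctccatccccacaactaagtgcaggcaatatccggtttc
In Gbp3 the capitals cover 2 overlapping matches, TTTCAGTTTC from 45 to 36 and TTTCTATTTC from 39 to 30 bases before the start. In Gbp7 the single match TTTCAGTTTC lies 53 to 44 bases before it. Gbp7 also holds 2 matches to the GAS letters TTCNNNGAA, TTCCAGGAA from 106 to 98 and TTCTCAGAA from 87 to 79 bases before the start, and Gbp3 holds 0. Neither window holds the NF-κB consensus. A second annotated start of Gbp3 has 0 matches to any of the 3 motifs. Of all 32851 windows of this length in the table, 2.98% hold the ISRE core, 7.02% the GAS letters and 7.25% the NF-κB consensus. A match of letters is a description and not a measured binding site. Gbp9, Usp18 and Iigp1 had no promoter window and were not searched.

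All 8 probes were higher after IL-1β than after vehicle in each of the 3 wild-type cultures, by 1.53-fold to 3.07-fold on average. Of all 5713 probes, 19.3% were also higher in each of the 3, and the choice of genes favours the count for the 8. In IL-1R1-deficient glia 0 of 8 passed the test, beside 0% of all 5713 probes, so this count does not set the 8 apart. The changes of the 8 there ran from -0.23 to 0.47 on the log2 scale. Once a trend along the probe order was taken out, the wild-type change went from 1.62 to 1.15 for Gbp3, from 1.13 to 0.90 for Gbp9, from 1.48 to 0.89 and from 0.62 to 0.66 for the probes of Gbp7, and from 0.89 to 0.74 for Usp18. The 3 probes of Iigp1 went from between 0.63 and 0.87 to between 0.12 and 0.33. Levels below are log2 of quantile-normalised intensity, and a change is the IL-1β minus the vehicle level within a culture, where 1 is a 2-fold difference. Each SE of a change or difference is that of the limma fit, which pools the variance over the cultures of both genotypes and moderates it over probes. It is not the SE of the listed culture changes alone, and n counts the cultures of the genotype. The intervals rest on the same SE.

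**Figure D1:**
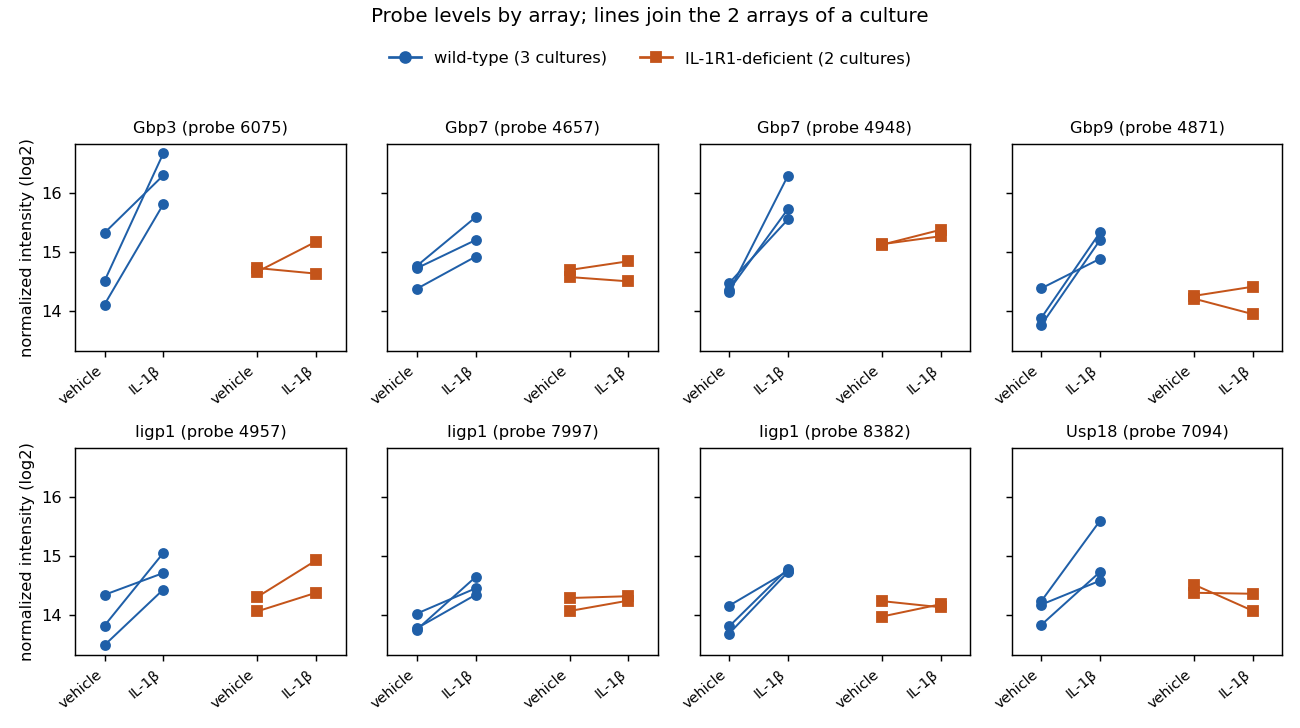
Level of each of the 8 probes on each array (vertical axis, log2 normalised intensity), with wild-type cultures as blue circles and IL-1R1-deficient cultures as orange squares, and a line joining the vehicle and IL-1β arrays of a culture. Every wild-type line goes up from vehicle to IL-1β, by 0.37 to 2.17, and 19.3% of all probes also rose in all 3 wild-type cultures. The IL-1R1-deficient lines run from -0.45 to 0.62. Gbp3 reaches the highest level, 16.68.

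Gbp3 had the widest change of the 5 genes. Its probe read 15.33, 14.51 and 14.11 in wild-type vehicle cultures 1, 2 and 3, and 16.31, 16.68 and 15.81 in the same cultures after IL-1β. In IL-1R1-deficient cultures 1 and 2 it read 14.73 and 14.67 with vehicle and 14.64 and 15.18 with IL-1β. The 3 wild-type IL-1β arrays were above all others, and the wild-type vehicle arrays spread widely around the 2 close IL-1R1-deficient ones. The wild-type change was 0.98, 2.17 and 1.70 in cultures 1 to 3, with an SD of 0.60. The mean change was 1.62 ± 0.22 (limma SE, n = 3), or 3.07-fold. It ranked 7 among the changes of all 5713 probes. In IL-1R1-deficient glia the change was 0.21 ± 0.27 (SE, n = 2; 95% interval -0.38 to 0.79), and the limma test gave an adjusted p of 0.882.

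Gbp7 was measured by 2 probes, numbered 4657 and 4948, which differed in level and in size of change. Probe 4948 read 14.36, 14.33 and 14.47 in wild-type vehicle cultures and 15.73, 16.30 and 15.56 after IL-1β. In the IL-1R1-deficient cultures it read 15.14 and 15.13 with vehicle and 15.27 and 15.38 with IL-1β. Its 4 IL-1R1-deficient arrays lay close together, above every wild-type vehicle array and below every wild-type IL-1β array. With vehicle, every IL-1R1-deficient array was above every wild-type one for 3 of the 8 probes, beside 15.3% of all probes. The wild-type change was 1.37, 1.97 and 1.08 by culture, a mean of 1.48 ± 0.19 (SE, n = 3), or 2.78-fold. The IL-1R1-deficient change was 0.19 ± 0.24 (SE, n = 2; 95% interval -0.32 to 0.70; limma adjusted p = 0.873).

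Probe 4657 of Gbp7 read 14.73, 14.38 and 14.77 in wild-type vehicle cultures and 15.21, 14.92 and 15.59 after IL-1β. In the IL-1R1-deficient cultures it read 14.58 and 14.70 with vehicle and 14.50 and 14.85 with IL-1β. The wild-type IL-1β arrays were again the highest, but here the IL-1R1-deficient arrays lay among the wild-type vehicle arrays or just above them. Its wild-type change of 0.62 ± 0.17 (SE, n = 3) was the smallest of the 8 probes and ranked 320 of 5713. The probes of Gbp7 gave wild-type changes 0.90, 1.42 and 0.25 apart in cultures 1, 2 and 3. The IL-1R1-deficient change of probe 4657 was 0.04 ± 0.21 (SE, n = 2; 95% interval -0.42 to 0.49; limma adjusted p = 0.974).

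Gbp9, a guanylate-binding protein of the chromosome 5 cluster, read 13.76, 13.89 and 14.39 in wild-type vehicle cultures and 15.21, 15.34 and 14.89 after IL-1β. In the IL-1R1-deficient cultures it read 14.21 and 14.26 with vehicle and 13.95 and 14.41 with IL-1β. With vehicle Gbp9 stood at percentiles 11, 17 and 51 of the fitted probes in wild-type cultures 1 to 3. Wild-type culture 3 started highest and ended lowest, so its change of 0.50 was well under the 1.45 of each of the other 2 cultures. The mean wild-type change was 1.13 ± 0.21 (SE, n = 3), or 2.20-fold. In IL-1R1-deficient glia the change was -0.05 ± 0.26 (SE, n = 2; 95% interval -0.61 to 0.50; limma adjusted p = 0.970). Members of the guanylate-binding protein family are alike in sequence, and the sources used here do not say how far a probe tells them apart.

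Iigp1, also called Irga6, belongs to the immunity-related GTPases and was measured by 3 probes. Probe 4957 read 13.49, 13.82 and 14.34 in wild-type vehicle cultures and 14.43, 15.05 and 14.71 after IL-1β. In the IL-1R1-deficient cultures it read 14.06 and 14.31 with vehicle and 14.38 and 14.93 with IL-1β. This probe was the only one of the 8 whose IL-1R1-deficient changes, 0.32 and 0.62, overlapped its wild-type changes, which ran from 0.37 to 1.23. Probe 8382 read 13.68, 13.80 and 14.16 in wild-type vehicle cultures and 14.73, 14.79 and 14.75 after IL-1β. In the IL-1R1-deficient cultures it read 14.24 and 13.97 with vehicle and 14.13 and 14.18 with IL-1β. Its 3 wild-type IL-1β arrays were nearly equal and stood above all other arrays. Probe 7997 lay between 13.75 and 14.02 in wild-type vehicle cultures, between 14.34 and 14.64 after IL-1β, and between 14.07 and 14.32 in the IL-1R1-deficient ones. With vehicle the 3 probes of Iigp1 were dim in wild-type cultures 1 and 2, at percentiles 3.2 to 13.1 of the fitted probes. In wild-type culture 3 they stood at percentiles 25.4 to 47.8. The mean wild-type change was 0.85 for probe 4957, 0.87 ± 0.18 (SE) for probe 8382 and 0.63 for probe 7997. In IL-1R1-deficient glia it was 0.47 ± 0.24 (SE, n = 2; 95% interval -0.04 to 0.98; limma adjusted p = 0.668) for probe 4957. The corresponding values were 0.05 ± 0.22 for probe 8382 and 0.10 ± 0.21 for probe 7997, with limma adjusted p-values of 0.964 and 0.924.

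Usp18 read 14.24, 14.18 and 13.83 in wild-type vehicle cultures and 15.60, 14.58 and 14.73 after IL-1β. In the IL-1R1-deficient cultures it read 14.38 and 14.51 with vehicle and 14.36 and 14.07 with IL-1β. Wild-type culture 1 stood apart after IL-1β, with a change of 1.37 against 0.41 and 0.90 in cultures 2 and 3, while both IL-1R1-deficient cultures were lower after IL-1β. The mean wild-type change was 0.89 ± 0.20 (SE, n = 3), or 1.86-fold. The IL-1R1-deficient change was -0.23 ± 0.25 (SE, n = 2; 95% interval -0.76 to 0.30; limma adjusted p = 0.856).

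In the quantile-normalised values the order of the 4 groups was alike for the 8 probes. The highest mean was that of wild-type glia with IL-1β and the lowest that of wild-type glia with vehicle, an order the choice of genes favours. With the position trend removed, wild-type glia with IL-1β had the highest mean for 7 of 8 probes (not Iigp1 probe 4957), and wild-type glia with vehicle the lowest for 5 of 8 (not Gbp3 or Iigp1 probes 7997 and 8382). In the quantile-normalised values the means of the IL-1R1-deficient groups lay between, and their arrays overlapped with each other or with the wild-type vehicle arrays for every probe but Gbp7 probe 4948. There the IL-1R1-deficient means of 15.13 ± 0.01 with vehicle and 15.33 ± 0.08 with IL-1β (SD, n = 2) were apart from the wild-type vehicle mean of 14.39 ± 0.08 (SD, n = 3). Vehicle arrays of the genotypes were apart in this direction for 15.3% of all probes.

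In wild-type glia 8 of 8 probes passed an adjusted p of 0.05 as higher, beside 4.55% of all 5713 probes (6.18% in either direction), and nothing is read from this because the genes were picked on it. Their median change was 0.88, against -0.04 over all probes. Every wild-type IL-1β array was above every wild-type vehicle array for 8 of 8 probes, as for 8.1% of all, and again this follows from the choice. In IL-1R1-deficient glia, whose response was not used in the choice, 0 of 8 passed, beside 0% of all probes. That background moved with the scaling: 153 probes passed without normalization between arrays, 177 with median centring and 336 with these arrays fitted alone, and 0 of the 8 was among them. At an unadjusted p under 0.05 there were also 0 of 8, beside 434 of all 5713. The median change there was 0.08 for the 8 probes and 0.01 over all. Both cultures changed upward for 3 of 8 probes, beside 31.9% of all probes. With 2 cultures these intervals reach up to 0.98 for Iigp1 probe 4957 and to between 0.30 and 0.79 for the other 7. Rises up to those limits are therefore not excluded. The limits do not give the smallest change that could be told from 0.

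The difference between the responses, wild-type minus IL-1R1-deficient, was above 0 for all 8 probes and is a description. It was 1.41 ± 0.35 (SE) for Gbp3, 1.28 ± 0.31 for Gbp7 probe 4948, 1.19 ± 0.33 for Gbp9 and 1.12 ± 0.32 for Usp18. It was 0.82 ± 0.28 for Iigp1 probe 8382, and from 0.38 to 0.58 for the other 3 probes. Even on the contrast that holds the values they were picked for, 0 of 8 passed the adjusted threshold, beside 0.158% of all probes. Every wild-type culture changed by more than every IL-1R1-deficient culture for 7 of 8 probes, beside 16.9% of all probes.

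**Figure D2:**
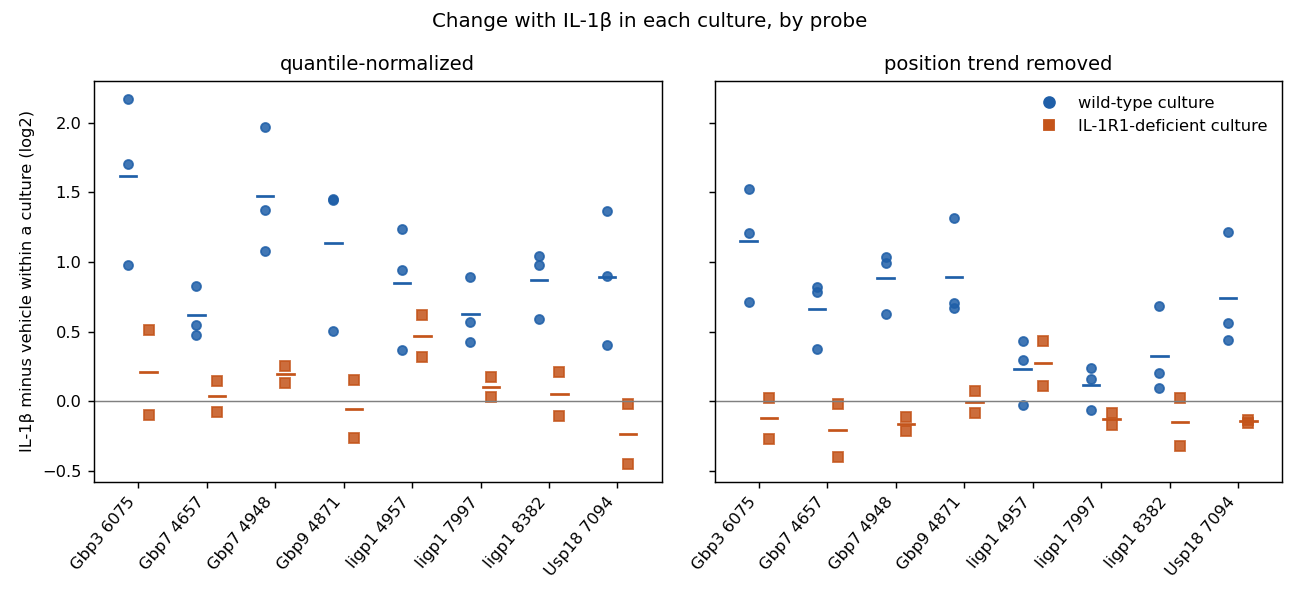
Change with IL-1β in each culture (vertical axis, log2) for the 8 probes, as quantile-normalised values on the left and with the trend along the probe order removed on the right; points are cultures and dashes are means. Blue points stay above the orange ones in both panels for 7 of 8 probes, all but Iigp1 probe 4957. Over all probes this held for 16.9% on the left and 12.4% on the right. The blue points of Iigp1 come down to between -0.06 and 0.69 on the right. There the lowest blue point lies above the highest orange one by 0.02 for Iigp1 probe 7997 and by 0.07 for probe 8382.

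Between the genotypes with vehicle, the IL-1R1-deficient minus wild-type difference was above 0 for all 8 probes, from 0.01 for Gbp7 probe 4657 to 0.75 ± 0.25 (SE) for Gbp7 probe 4948. It shares the wild-type vehicle arrays with the choice of genes, 0 of 8 passed, and 0.0175% of all probes did. With the position trend removed 5 of 8 were above 0, and Gbp3 was at -0.20, Iigp1 probe 7997 at -0.048 and Iigp1 probe 8382 at -0.19. Gbp7 probe 4948 then came to 0.43. After IL-1β the difference was below 0 for all 8, from -0.08 for Iigp1 probe 4957 to -1.36 ± 0.35 (SE) for Gbp3. There again 0 of 8 passed, beside 0.07% of all probes, while every wild-type array was above every IL-1R1-deficient one for 7 of 8, beside 9.05% of all. It was -0.97 for Gbp9 and -0.76 for Usp18. With the trend removed Iigp1 probe 4957 turned to 0.14, and without normalization between arrays, whose medians differ, all 8 were above 0, from 0.43 to 1.69.

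The changes with IL-1β on these arrays moved with the place of a probe in the deposited order, in both genotypes. Read as plates of 16 rows and 24 columns, an arrangement inferred from the values, plates 12 to 23 had a median wild-type change that went from -0.11 in row 1 to 0.60 in row 14. Gbp3 and Iigp1 probes 7997 and 8382 lay in row 14, where 41.8% of all probes were called higher. Gbp7 probe 4948 and Iigp1 probe 4957 lay in row 15, with a median of 0.56 and 31.7% called higher. Gbp9 lay in row 11 (median 0.36), Usp18 in row 8 (0.14) and Gbp7 probe 4657 in row 3 (-0.04). The 8 nearest probes in order had a median change of 0.57 beside Gbp3, 0.56 beside Iigp1 probe 4957 and 0.55 beside Iigp1 probe 7997. Iigp1 probe 7997, at 0.63, was thus near the level of its neighbours. In IL-1R1-deficient glia the median change also rose along these rows, from -0.30 in row 1 to 0.15 in row 14, 0.22 in row 15 and 0.43 in row 16. Iigp1 probe 4957, in row 15, had an IL-1R1-deficient change of 0.47.

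**Figure D3:**
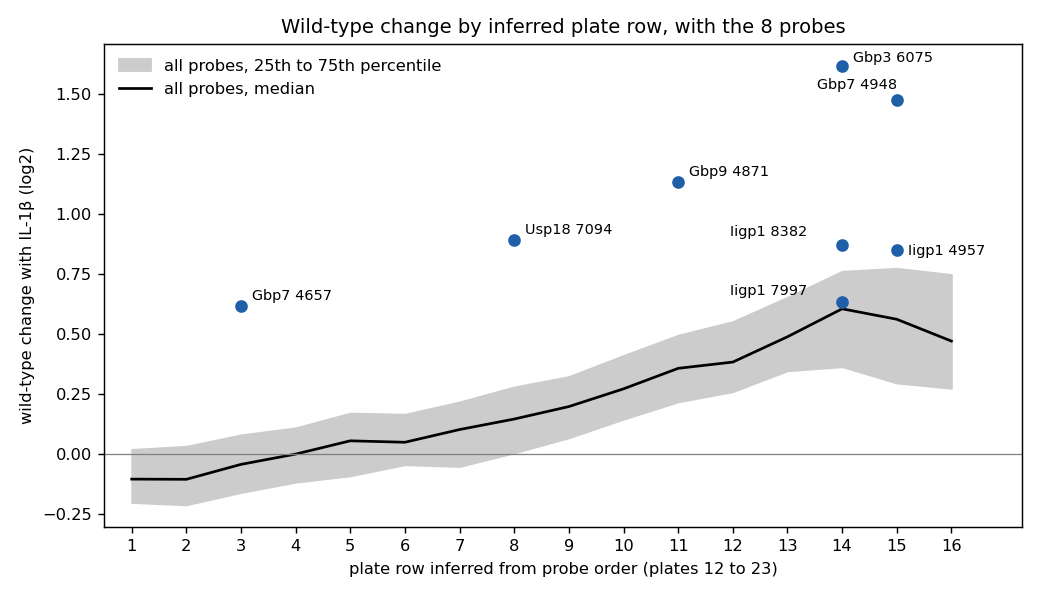
Wild-type change with IL-1β (vertical axis, log2) against the plate row inferred from probe order in plates 12 to 23, with all probes as a median line and a grey band from the 25th to the 75th percentile, and the 8 probes as blue points. Gbp3, Gbp7, Gbp9, Usp18 and Iigp1 probes 8382 and 4957 lie above the band of their row, and Iigp1 probe 7997 lies inside it.

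With this trend removed, 3 of 8 probes passed in wild-type glia, beside 0.333% of all probes: Gbp3, Gbp7 probe 4948 and Gbp9. Their changes were 1.15 ± 0.15 (SE), 0.89 ± 0.13 and 0.90 ± 0.15. Usp18 at 0.74 and Gbp7 probe 4657 at 0.66 did not pass, although they ranked 23 and 28 of 5713. The Iigp1 probes came to 0.33, 0.23 and 0.12, and 2 of them no longer changed the same way in all 3 cultures. That left 6 of 8 probes higher in all 3 wild-type cultures, beside 15.3% of all probes. For Iigp1 probe 4957 the difference between the responses turned to -0.04. In IL-1R1-deficient glia 0 of 8 passed with the trend removed too, and 7 of 8 changes were then below 0. Both cultures went up for 1 of 8, Iigp1 probe 4957, beside 29.4% of all probes. Every wild-type IL-1β array stayed above every wild-type vehicle array for 4 of 8, beside 4.15% of all.

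A fit without the culture pairing passed 1 of 8 probes in wild-type glia, Gbp7 probe 4948, beside 14 of all 5713. Leaving out any 1 culture left from 2 to 6 of 8, and the count over all fitted probes moved as well. The fewest, 2, passed without wild-type culture 1, beside 54 of 6398 in all. Then came 3 without wild-type culture 2 (81 of 5887 in all) and 4 without IL-1R1-deficient culture 2 (102 of 6005). Without wild-type culture 3 there were 5 (343 of 6598), and without IL-1R1-deficient culture 1 there were 6 (225 of 5902).

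The probes nearest to the 8 in their changes over the 5 cultures were named by the root mean square distance from the median change of the 8. They were Chid1 at 0.08, Ccdc86 at 0.11, Acp1 and Dnmt3a at 0.14 and Mapk6 at 0.15. Of these 5, 4 lay in inferred row 14. With the trend removed their wild-type changes were 0.55, 0.19, 0.26, 0.28 and 0.28, whereas the median of the 8 probes was 0.70. Among the 8 themselves, Iigp1 probe 8382 was nearest to their median at 0.08 and Gbp3 farthest at 0.67.

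Of 113 other interferon pathway genes listed, 25 were measured on all arrays. In wild-type glia 1 of the 25 was higher and 0 lower, with a median change of 0.05 and 14 of 25 above 0. In IL-1R1-deficient glia 0 of 25 passed, with a median of -0.06. With the trend removed 0 of 25 passed in either genotype.

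Among the other interferon-inducible GTPases, 2 of 18 were measured. Gbp8, another guanylate-binding protein, rose in wild-type glia by 0.87 ± 0.20 (SE, n = 3; limma adjusted p = 0.0291). Its cultures changed by 1.36, 0.38 and 0.86, and the IL-1R1-deficient ones by -0.15 and 0.026. With the trend removed its change was 0.63 (limma adjusted p = 0.190), and it also missed the threshold without wild-type culture 1 (0.60), without wild-type culture 3 (0.89) or without IL-1R1-deficient culture 2 (0.86). Tgtp1, an immunity-related GTPase like Iigp1, changed by -0.01 ± 0.21 in wild-type and -0.67 ± 0.26 in IL-1R1-deficient glia (SE; limma adjusted p = 0.989 and 0.601).

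Among ligands and receptors, 0 of 15 listed interferon and receptor genes had a value on all arrays. Of the JAK-STAT and IRF factors that carry the signal, 4 of 15 were measured and 0 passed in either genotype. The brightest were Irf9, a DNA-binding interferon regulatory factor, at -0.16 in wild-type glia, and Irf8, a factor of microglia and other myeloid cells, at 0.12. In the ISG15 pathway, on which Usp18 acts, 3 of 6 were measured and 0 passed. Uba7, the enzyme that activates ISG15, was at -0.07 and Trim25, a ligase for it, at 0.23. Of the other interferon-stimulated genes 13 of 40 were measured and 0 passed, with a median of 0.06. Zbp1, a sensor of Z-form nucleic acid, was at 0.09 and Ifi27 at -0.46. Of the antigen presentation genes 3 of 19 were measured and 0 passed, with Psme1, a proteasome activator subunit, at -0.27 and H2-Eb1, an MHC class II chain, at 0.14.

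**Figure D4:**
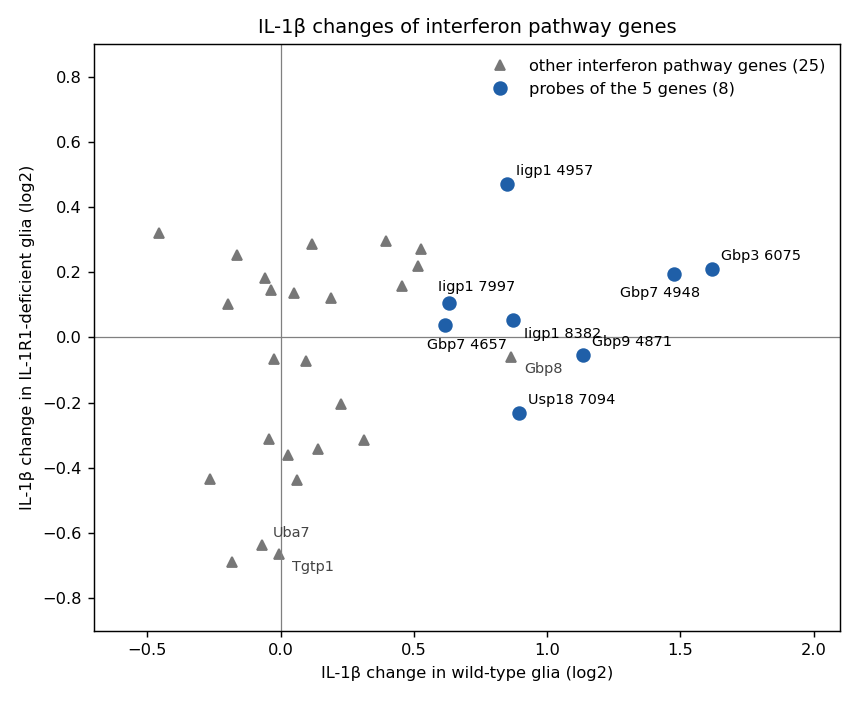
Change with IL-1β in wild-type glia (horizontal axis, log2) against that in IL-1R1-deficient glia (vertical axis, log2), with the 8 probes as blue circles and the 25 other interferon pathway genes as grey triangles. The 8 probes lie from 0.62 to 1.62 on the horizontal axis, Gbp8 at 0.87 lies among them, and the other pathway genes spread around 0.

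Of the 25 pathway genes, 21 had a promoter window in the table, of which 3 held the ISRE core, 3 the GAS letters and 2 the NF-κB consensus. A gene was counted if any of its windows held the motif. The shares over all windows given above are per window, so the counts are not in the same unit.

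A few cell type markers, Id4, Glul and Emcn, also moved in wild-type glia, and only Id4 passed with the position trend removed. In bulk RNA, fewer cells of a type and less RNA per cell cannot be told apart. Of 10 astrocyte markers 4 were measured, and 2 of these fell, Id4 by 1.60 and Glul, glutamine synthetase, by 0.84 on the log2 scale. Of all probes 6.18% passed in either direction. The marker lists were chosen with earlier results of these data known, so the fall of these 2 is a description. Sox9, at -0.20, and Slc1a2, at 0.10, did not pass. With the position trend removed Id4 passed and Glul did not. The summed normalised intensity of the 4, of which Glul was the brightest, ran from 185262 to 197439 in wild-type vehicle arrays. It ran from 101790 to 115733 after IL-1β. In IL-1R1-deficient glia it ran from 119938 to 164962 with vehicle and from 104953 to 161755 with IL-1β. Of 15 microglia and macrophage markers 5 were measured and 0 passed, and their sum ran from 239217 to 257933 in wild-type vehicle arrays and from 180131 to 252461 after IL-1β. In IL-1R1-deficient glia the microglia sum ran from 223552 to 265079 with vehicle and from 222087 to 223083 with IL-1β. Of the other marker lists, 1 of 5 endothelial and mural markers measured was higher in wild-type glia (Emcn, 0.84; 0.22 and past no threshold with the trend removed). Of the markers of the oligodendrocyte lineage (3 measured), neurons, meningeal fibroblasts and lymphocytes (2 measured of each), 0 passed. No marker measured was at 0, and the part of these shifts in the results was not tested. Il1r1 itself read 13.87 ± 0.18 in wild-type (SD, n = 3) and 13.96 ± 0.14 in IL-1R1-deficient vehicle glia (SD, n = 2), which checks nothing, since the sources used here do not place its probe relative to the deleted part.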

How the data were processed

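RNA of paired mixed glial cultures was measured on 33P-labelled cDNA arrays. The deposited values are linear spot intensities. What software, background correction, scaling or filter the authors applied to them is not stated in the sources used here. Within a culture both arrays miss identical probes. Minimum intensities were 0.225 to 0.368 of the array medians, and folds are those of the intensities as they stand. The genes and lists were chosen with earlier results of these data known.

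Arrays were quantile-normalized on the log2 scale, since medians differed by over 0.1, with limma 3.58.1 in R 4.3.3. Probes with a value on all 10 arrays, 65.4% of 8734, were fitted by lmFit and eBayes with a block for each culture and a separate IL-1β term in each genotype. Genotypes were compared by group means, culture being a random block (duplicateCorrelation, statmod 1.5.0, correlation 0.388, or 0.464 with the trend removed). Two-sided p-values over all fitted probes received the Benjamini-Hochberg adjustment, and 0.05 was the threshold. The precision rests on 5 cultures, since depth has no meaning for arrays. The labels call the cultures independent biological replicates.

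The pairing comes from the design text. For the arrays of 1 culture, the deviations from group means correlated across probes at 0.468, 0.582 and 0.261 in wild-type cultures 1 to 3, and at 0.562 in the IL-1R1-deficient ones, where the deviations mirror each other.

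Position trends were removed by smoothing each array's deviation from the mean of all arrays over plate row and column (loess, span 0.2), separately up to plate 11 of 23 and after it. Columns counted as copies where a fixed ratio held within 1e-04 on the log2 scale.

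Named genes were all probes of the 5 genes, Il1r1, the pathway genes that passed a threshold, the 2 brightest of each list with 3 or more measured, and the 5 genes nearest in pattern. Tgtp1 was named as the remaining measured GTPase. Gene names came from the platform annotation, and 8 of 8 probes kept their symbol in the GRCm38.p6 gene table; 2 of the 5 genes had a promoter printed from the table.

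Simulated on 5713 probes with 50 changed at each size, the wild-type fit recovered 6%, 76%, 92% and 92% of changes of 0.5, 1, 1.5 and 2 (log2), with 9 false calls of 142. Fitted with the position trend removed, the simulation gave 7 false calls of 138. On the measured arrays that removal took the wild-type calls from 353 to 27. How many false calls a position trend can give was not tested. Alternatives covered normalization, the position trend, the pairing, each culture left out, the groups alone, the copied columns, missing values and dim probes.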

Additional observations from a re-analysis of the deposited data

Results flagged for a closer look

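The change of Usp18 with IL-1β lay on opposite sides of 0 in the cultures of the genotypes. It was 1.37, 0.41 and 0.90 on the log2 scale in the 3 wild-type cultures and -0.02 and -0.45 in the 2 IL-1R1-deficient cultures, so that every wild-type value was above 0 and both IL-1R1-deficient values were below it, 1 of them by little. The responses were 1.12 apart. In the limma fit across all probes this difference did not pass the adjusted threshold, and it is a description only, because the wild-type change entered the choice of the gene. The IL-1R1-deficient change of -0.23 (95% interval -0.76 to 0.30) did not pass either, so no downward change is shown there. With the position trend removed the wild-type changes were 1.22, 0.44 and 0.57 and the IL-1R1-deficient ones -0.13 and -0.16.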

How the results depend on the processing

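Of the 8 probes, 8 passed in wild-type glia without normalization between arrays, with median centring and with gaps kept, 6 with the groups compared alone and with the dimmest probes (lowest 0.25 by mean level) left out, 4 with all 12 columns, 3 with the position trend removed and 2 with the copied columns and the cultures of their sources left out. Without the culture block, 1 passed. Leaving out 1 culture at a time left 2 to 6. For the difference between the responses 4 passed without normalization and 4 with median centring, 0 otherwise, and 0 to 2 with a culture left out, the 2 without wild-type culture 3. In IL-1R1-deficient glia and in both genotype comparisons 0 passed under every alternative that was run; the genotype comparisons could not be fitted with the copied columns and their source cultures left out.

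Over all probes, 353 passed in wild-type glia, 412 without normalization, 396 with median centring, 27 with the trend removed, 14 without the block, 222 with the groups alone, 150 with 12 columns, 109 with the copies and sources left out, 644 with gaps kept, 257 without dim probes and 54 to 343 with a culture left out. For the difference it was 9, against 240 without normalization, 264 with median centring, 0 without the block, 46 with gaps kept and 3 to 69 with a culture left out. For the IL-1R1-deficient response it was 0, against 153 without normalization, 177 with median centring, 336 with the groups alone, 1 with the copies and sources left out and 0 to 1 with a culture left out. Of the 25 pathway genes, 3 passed in IL-1R1-deficient glia without normalization, with median centring and with the groups alone.

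The IL-1R1-deficient change, past no threshold, changed sign as follows; the cause was not tested. With the trend removed it was -0.12 for Gbp3, -0.21 and -0.16 for Gbp7 probes 4657 and 4948, and -0.13 and -0.15 for Iigp1 probes 7997 and 8382. Without normalization it was -0.0017 and -0.046 for the Gbp7 probes, and with median centring -0.032 and -0.076. With 12 columns it was -0.032 for Gbp7 probe 4657 and 0.12 for Gbp9, and with the copies and sources left out 0.15 for Gbp9. With a culture left out it ran from -0.093 to 0.49 for Gbp3, from -0.074 to 0.15 for Gbp7 probe 4657, from -0.26 to 0.16 for Gbp9 and from -0.11 to 0.21 for Iigp1 probe 8382. How much background the intensities still hold is unknown, which limits how fold changes can be read.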

Other observations

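Gbp2, a guanylate-binding protein beside Gbp3 and Gbp7 on chromosome 3, had no value in IL-1R1-deficient culture 1, so it was outside the 25 pathway genes, and it was singled out after its values were seen. In quantile-normalised values of the 8146 probes kept when gaps were allowed, its change with IL-1β was 2.82, 3.25 and 2.48 on the log2 scale in the 3 wild-type cultures and -0.23 in the remaining IL-1R1-deficient culture. In a limma fit of the same values, the wild-type change was 2.85 ± 0.20 (SE), or 7.20-fold. No fit of Gbp2 with the position trend removed was run. The IL-1R1-deficient value rests on 1 culture. The 250 bases before the start of Gbp2 hold 1 match to the ISRE core, TTTCACTTTC, 59 to 50 bases before the start.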
